A study of Mus musculus with 24 samples.

Results

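Pericytes are the mural cells that wrap capillaries and share a basement membrane with the endothelium. Abcc9, Kcnj8, Rgs5, Pdgfrb, Cspg4 and Notch3 are 6 genes in common use as their markers, and their levels in the mouse left ventricle are described here. Every array probe that the platform annotation pairs with one of these genes was read on its own, which gave 9 of the 45281 probes and 6 of the 19057 genes with a symbol there. The detection p-value is the chance of such a signal from negative controls, and each strain has 12 arrays. Probes were kept for a strain if 3 or more of its arrays had a detection p-value under 0.05. This left 8 of the 9 probes for C57Bl/6J and 7 for Balb/C, with at least 1 probe for each of the 6 genes in both strains.

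Pericytes are recruited by PDGF-B from the endothelium, which acts on their receptor Pdgfrb, and Notch ligands on endothelial cells act on Notch3. Kcnj8 encodes the pore (Kir6.1) and Abcc9 the sulphonylurea receptor (SUR2) of an ATP-sensitive potassium channel that sets the tone of small vessels. Rgs5 shortens signals of G protein-coupled receptors, and Cspg4 is the surface proteoglycan NG2. None of these genes is restricted to pericytes: vascular smooth muscle also makes Rgs5, Pdgfrb, Cspg4, Notch3 and the channel of Kcnj8 and Abcc9, and cardiac myocytes also make Abcc9.

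The study asked how the heart's response to angiotensin II (AngII), a peptide that raises blood pressure and drives cardiac hypertrophy, depends on the tyrosine kinase Bmx. Male mice were infused for 2 weeks with AngII or, as sham treatment, with saline, and RNA of the left ventricle was read on 24 Illumina arrays in 8 groups of 3. In C57Bl/6J the groups were KO AngII, KO Sham, WT AngII and WT Sham, and in Balb/C they were TK AngII, TK Sham, WT AngII and WT Sham. KO and TK mice are labelled Bmx deficient and WT mice wild type; what TK stands for, the kind of allele and the age of the mice are not given in the sources used here. The labels do not say whether replicates came from separate animals, so p-values measure only the spread between these samples. The strains lie in separate tables that were normalized separately, so strain and table cannot be told apart and only differences within a table are set against each other.

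Median raw signals per array lay between 124.2 and 139.8 in C57Bl/6J and between 95.3 and 110.2 in Balb/C, with 17934 to 19262 and 17222 to 18592 probes detected, and replicates correlated at 0.984 or more. All 7 ventricular myocyte markers on the array passed the filter. The atrial markers Myl4 and Nppa passed in both strains, while Myl7 and Sln did not pass in either. Of 4 Bmx probes 1 was detected on every array, at a mean log2 level of 6.26 in KO AngII, 6.11 in KO Sham, 6.54 in WT AngII and 6.43 in WT Sham of C57Bl/6J. In Balb/C the same probe averaged 5.90 in TK AngII, 5.73 in TK Sham, 5.52 in WT AngII and 5.69 in WT Sham. Where its probe lies relative to the altered part of the gene is not known here, so it is no check of the genotype labels.

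Kcnj8 and 1 of the Abcc9 probes, for the pore and the receptor of the potassium channel, fell in Balb/C WT ventricles under AngII by about the same amount, and neither of these probes was called under AngII in TK or in C57Bl/6J ventricles. Kcnj8 was 2.49-fold lower and the Abcc9 probe ILMN_3104271 was 2.48-fold lower in WT AngII than in WT Sham. Under AngII both were higher in TK than in WT ventricles, 1.68-fold for Kcnj8 and 1.63-fold for Abcc9. These calls held under 9 of 10 other ways of processing the arrays and were lost without some single arrays. The direct test of whether the TK and WT responses to AngII differ called neither probe. Rgs5 was called lower in TK ventricles. In WT its AngII arrays also all lay below the sham arrays, without a call, and its TK and WT responses were not called different. A second Abcc9 probe, ILMN_2623859, went the other way and was called higher in both Balb/C genotypes. In WT that call was kept in 2 of 6 fits that left out 1 array each. Of the other genes, Pdgfrb, Cspg4 and Notch3 passed the test in no comparison, and in C57Bl/6J none of the 8 probes did. Of all detected probes 34.3% were called under AngII in WT and 13.4% in TK of Balb/C. In C57Bl/6J only 6.40% were called in WT and 3.40% in KO. Between the genotypes under AngII the shares were 8.29% in Balb/C and 0.108% in C57Bl/6J. Tissue was measured in bulk, so fewer cells of a type and less RNA per cell cannot be told apart.

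Kcnj8 and Abcc9 are neighbours. In assembly GRCm38.p6 Kcnj8 spans 142564837 to 142571614 and Abcc9 spans 142587862 to 142702766 on chromosome 6, both are read from the minus strand, and 16.2 kilobases lie between them. Of the 6 genes 5 have a promoter in the RefSeq table of that assembly (250 bases before to 50 after the annotated start); Pdgfrb has none there. The promoters of the channel pair are printed because Kcnj8 and the Abcc9 probe ILMN_3104271 moved together, with matches to 3 short motifs on either strand in capitals: TGGGAA (the core bound by RBPJ, the factor of the Notch pathway), GGAATG (the core bound by TEAD factors) and GGGCGG (the GC box). The Abcc9 window is chr6:142702225-142702524 and the Kcnj8 window chr6:142571565-142571864, each written 5′ to 3′ on the minus strand; the Abcc9 start in the table lies inside the span given above.
Abcc9: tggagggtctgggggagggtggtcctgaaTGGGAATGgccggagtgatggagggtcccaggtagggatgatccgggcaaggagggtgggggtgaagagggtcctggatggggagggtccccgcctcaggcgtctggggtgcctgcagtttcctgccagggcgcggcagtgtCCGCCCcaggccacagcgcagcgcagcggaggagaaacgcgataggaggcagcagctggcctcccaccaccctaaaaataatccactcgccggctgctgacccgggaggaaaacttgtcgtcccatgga
Kcnj8: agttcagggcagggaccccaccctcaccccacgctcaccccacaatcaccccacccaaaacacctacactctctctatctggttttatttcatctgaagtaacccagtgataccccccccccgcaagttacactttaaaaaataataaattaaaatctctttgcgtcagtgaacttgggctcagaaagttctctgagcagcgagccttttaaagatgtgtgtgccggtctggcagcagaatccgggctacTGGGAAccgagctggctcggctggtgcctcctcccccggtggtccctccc
Each window held 1 TGGGAA. In Abcc9 it starts at base 30 and overlaps the GGAATG that starts at base 32, and a GC box on the opposite strand starts at base 172. In Kcnj8 it starts at base 251, the first base after the 250 upstream ones, and GGAATG and GGGCGG are not in this window. TGGGAA was found in 25.6% of all 32851 promoters of this length, GGAATG in 14.7% and GGGCGG in 35.7%. The windows of Rgs5, Cspg4 and Notch3 held no TGGGAA and no GGAATG, with 2 GC boxes in Cspg4 and 4 in Notch3. The E-box CANNTG, not capitalised, was found once each in Abcc9, Kcnj8 and Rgs5 and in 72.3% of all promoters, and the CArG box, the motif of serum response factor, in none of the 5 windows and in 1.6% of all promoters. A match describes letters in a window and shows no binding.

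Kcnj8 (probe ILMN_1253409) had log2 levels of 8.20, 7.93 and 7.49 in Balb/C WT AngII ventricles, against 9.22, 9.38 and 8.98 in WT Sham. No WT AngII array reached the lowest WT Sham array. In TK ventricles it read 8.73, 8.54 and 8.61 under AngII, against 9.09, 8.97 and 9.05 in TK Sham. Those groups did not overlap either, and the TK AngII arrays all lay above the WT AngII arrays. By limma with Benjamini-Hochberg adjustment over all detected probes, the AngII minus Sham difference in WT was -1.32 ± 0.17 (log2, SE) with an adjusted p of 2.29e-05. In TK it was -0.41 ± 0.17 with a 95% interval of -0.77 to -0.06 and an adjusted p of 0.119, which misses the threshold of 0.05.

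The Abcc9 probe ILMN_3104271 ran alongside. It read 9.64, 9.23 and 9.17 in Balb/C WT AngII ventricles, against 10.82, 10.56 and 10.60 in WT Sham, and the difference of -1.31 ± 0.15 was called (adjusted p = 1.04e-05, limma). In TK it read 10.16, 10.02 and 10 under AngII, against 10.40, 10.41 and 10.71 in TK Sham. The groups did not overlap, but the difference of -0.45 ± 0.15 was not called (adjusted p = 0.0652), although it was under 4 of the other settings tried (adjusted p 0.0348 to 0.0435). For both genes the order of the group means was WT Sham, TK Sham, TK AngII and WT AngII from high to low, and of neighbours in that order TK Sham and WT Sham overlapped while the others did not. Across the 12 Balb/C arrays the levels of Kcnj8 and this Abcc9 probe correlated at r = 0.96, and at r = 0.58 after the group means were removed. In C57Bl/6J the same values were 0.40 and 0.14. These arrays share their treatment groups, and the correlations are given as descriptions.

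**Figure D1:**
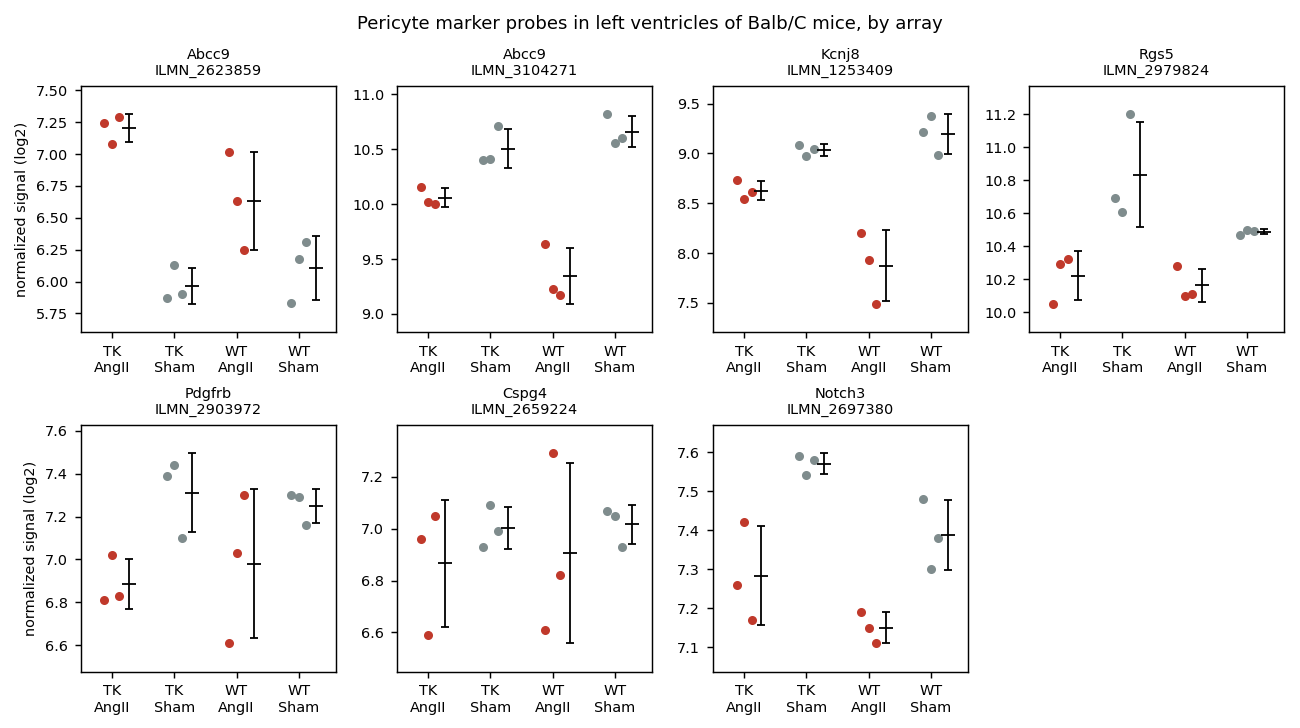
Normalized log2 signal (vertical axes, 1 panel per probe, axes not starting at 0) of the 7 tested pericyte marker probes on each Balb/C array; red points are AngII and grey points Sham arrays, and the bars give the mean and SD of 3 arrays. Kcnj8 and Abcc9 ILMN_3104271 are lowest in WT AngII, at 7.49 to 8.20 and 9.17 to 9.64, while Cspg4 overlaps across all 4 groups.

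**Figure D2:**
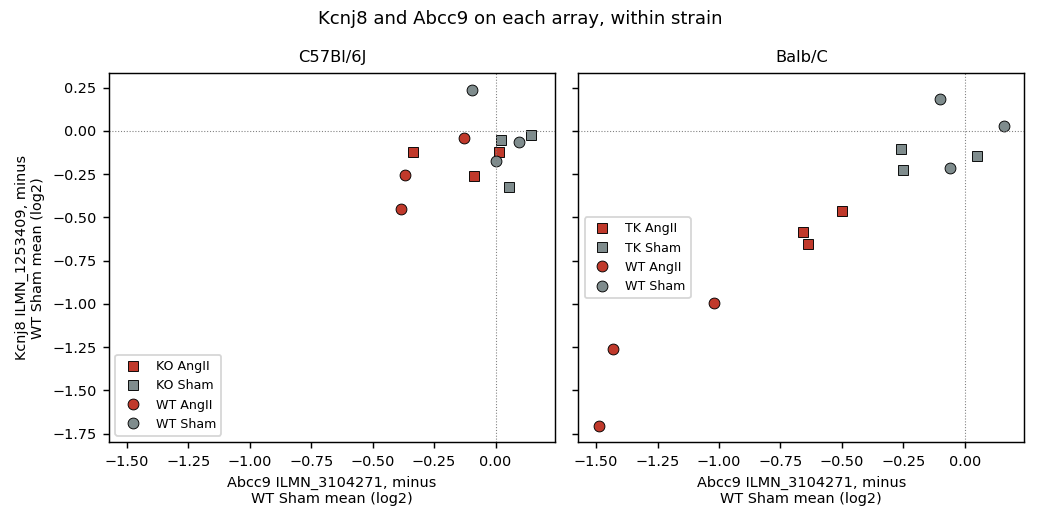
Kcnj8 (vertical) against Abcc9 ILMN_3104271 (horizontal) on each array, both as log2 level minus the WT Sham mean of the same strain, with C57Bl/6J on the left and Balb/C on the right; squares are KO or TK, circles WT, red AngII and grey Sham. The Balb/C arrays spread along a line (r = 0.96), with WT AngII at the low end and TK AngII between it and the sham arrays.

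Other probes of Abcc9 behaved differently. ILMN_3104271 is annotated to 1 RefSeq transcript record of the gene and the remaining 3 probes to another. Of those 3, ILMN_1233056 was detected on 0 of 12 arrays in each strain and ILMN_1253491 on 9 of 12 arrays in C57Bl/6J and 0 of 12 in Balb/C. ILMN_2623859 was detected on all 24 arrays. In Balb/C it read 7.24, 7.08 and 7.29 in TK AngII, against 5.87, 6.13 and 5.90 in TK Sham, with every AngII array above every sham array. The rise of 1.24 ± 0.18 was called (2.36-fold, adjusted p = 2.68e-04, limma). In WT it read 7.02, 6.63 and 6.25 under AngII, against 5.83, 6.18 and 6.31 in WT Sham, where the groups overlapped by 1 array. That rise of 0.53 ± 0.18 was called (adjusted p = 0.0334), but not without WT AngII array 1 (0.33, adjusted p = 0.176), WT AngII array 2 (0.53, 0.0678), WT Sham array 1 (0.39, 0.151) or WT Sham array 2 (0.56, 0.055). So within WT ventricles the Abcc9 probes of different transcript records were called in opposite directions. Its raw signals in Balb/C were 185 to 268.2 on the AngII arrays and 116.1 to 161.5 on the sham arrays, all above the array medians of 95.3 to 110.2. No probe sequence was used here to place either probe on the gene.

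Rgs5 (ILMN_2979824), the regulator of G protein signals, read 10.05, 10.29 and 10.32 in TK AngII ventricles, against 10.69, 10.61 and 11.20 in TK Sham. The groups did not overlap, and the fall of 0.61 on the log2 scale (-0.61 ± 0.16, 1.53-fold, adjusted p = 0.0166, limma) was called. TK Sham array 3 stood well above the other sham arrays: without it the difference was -0.43 (adjusted p = 0.0922), and without TK AngII array 1 it was -0.52 (adjusted p = 0.0677), neither of them called. In WT ventricles Rgs5 read 10.28, 10.10 and 10.11 under AngII, against 10.47, 10.50 and 10.49 in WT Sham. Again no arrays overlapped, but the difference of -0.32 ± 0.16 was not called (adjusted p = 0.126). Whether the TK and WT responses of Rgs5 differ was tested directly, and the difference of responses was -0.29 ± 0.22 (95% interval -0.76 to 0.18, adjusted p = 0.633).

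The receptors and the proteoglycan passed in neither genotype. Notch3 (ILMN_2697380) read 7.26, 7.42 and 7.17 in TK AngII, against 7.59, 7.54 and 7.58 in TK Sham, and 7.19, 7.15 and 7.11 in WT AngII, against 7.48, 7.30 and 7.38 in WT Sham. In both genotypes all AngII arrays lay below all sham arrays, with differences of -0.28 ± 0.13 in TK (adjusted p = 0.159) and -0.24 ± 0.13 in WT (adjusted p = 0.16). Pdgfrb (ILMN_2903972), the PDGF-B receptor, read 6.81, 7.02 and 6.83 in TK AngII, against 7.39, 7.44 and 7.10 in TK Sham, without overlap (-0.43 ± 0.17, adjusted p = 0.105). Its WT AngII arrays spread from 6.61 to 7.30 and overlapped WT Sham at 7.16 to 7.30 (-0.27 ± 0.17, adjusted p = 0.227). Cspg4 (ILMN_2659224) overlapped in both genotypes, at -0.13 ± 0.17 in TK and -0.11 ± 0.17 in WT, with intervals of -0.50 to 0.23 and -0.47 to 0.25. When each array was instead scaled to a common median, the WT differences of Rgs5, Notch3, Pdgfrb and Cspg4 were all above 0, at 0.20, 0.29, 0.24 and 0.40, none called. The median of all probes was then 0.28. Relative to it these 4 probes were at -0.07, 0.01, -0.03 and 0.13, values that were not tested.

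In WT Balb/C ventricles 1 of the 7 probes was thus called higher and 2 lower, where 34.3% of all 19783 detected probes were called, 16.5% higher and 17.7% lower. The median difference of the 7 probes was -0.27, against -0.06 over all detected probes. In TK ventricles 1 was called higher and 1 lower, where 13.4% of all probes were called, 7.79% higher and 5.59% lower, and the medians were -0.41 for the 7 probes and -0.05 for all. The choice of scaling matters to these counts. With each array scaled to a common median, the median of all probes in WT was 0.28 and the calls split into 6330 higher and 494 lower, against 3271 higher and 3508 lower with quantile normalization; in TK the split was 1091 to 281, against 1542 to 1105. Under that scaling the WT differences of Kcnj8 and Abcc9 ILMN_3104271 were -0.79 (adjusted p = 0.00457) and -0.78 (adjusted p = 0.00393), or -1.07 and -1.05 relative to the median of all probes.

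Between the genotypes under AngII, Kcnj8 was higher in TK than in WT by 0.75 ± 0.17 (adjusted p = 0.0107, limma) and Abcc9 ILMN_3104271 by 0.71 ± 0.15 (adjusted p = 0.00893), without overlap of the arrays. ILMN_2623859 was also above WT on every TK array, but its 0.57 ± 0.18 was not called (adjusted p = 0.0639). The other 4 probes lay between -0.10 and 0.14. The 2 called of 7, both higher, stand beside 8.29% of all probes called in this comparison, and 3.38% of all probes were called higher. The median was 0.14 for the 7 probes and 0.01 for all. The calls are not firm. With arrays scaled to a common median the differences were 0.40 for Kcnj8 (adjusted p = 0.191) and 0.41 for Abcc9 (adjusted p = 0.16), and the split of all calls was 151 higher to 2827 lower, against 668 to 972. The median of all probes was then -0.21. Relative to it Kcnj8 was at 0.61 and Abcc9 at 0.62, values that were not tested. Kcnj8 lost its call without TK AngII array 1 (0.70, adjusted p = 0.0603) and without WT AngII array 3 (0.56, 0.0665), and Abcc9 without TK AngII array 1 (0.65, 0.0541), WT AngII array 2 (0.65, 0.0578) and WT AngII array 3 (0.62, 0.054). Without WT AngII array 1, ILMN_2623859 was called as well (0.76, adjusted p = 0.00938).

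In sham-treated Balb/C mice none of the 7 probes was called between TK and WT, and none of all 19783 probes was (0%), with 2045 probes at an unadjusted p below 0.05. The TK minus WT difference was -0.16 ± 0.17 for Kcnj8 and -0.15 ± 0.15 for Abcc9 ILMN_3104271, with overlapping arrays. Rgs5 differed most, at 0.34 ± 0.16 (unadjusted p = 0.0445, adjusted p = 0.469), with every TK Sham array above every WT Sham array. The test of the responses themselves, AngII minus Sham in TK minus the same in WT, called none of the 7 probes, where 1.24% of all probes were called. Kcnj8 came to 0.90 ± 0.24 (95% interval 0.40 to 1.41, adjusted p = 0.0778) and Abcc9 ILMN_3104271 to 0.86 ± 0.22 (0.40 to 1.32, adjusted p = 0.0645). Without WT AngII array 1, the array of that group with the highest level of either gene, both were called, at 1.07 (adjusted p = 0.0142) and 1.00 (adjusted p = 0.0128). With arrays scaled to a common median neither was called, at 0.38 (adjusted p = 0.415, limma) and 0.36 (adjusted p = 0.417). The median of all probes was then -0.34. Relative to it Kcnj8 was at 0.71 and Abcc9 ILMN_3104271 at 0.70, values that were not tested. That TK ventricles respond less is therefore not shown at the threshold by all 12 arrays.

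In C57Bl/6J no member probe was called under AngII. Kcnj8 read 8.44, 8.58 and 8.58 in KO AngII, against 8.65, 8.38 and 8.68 in KO Sham, and 8.25, 8.45 and 8.66 in WT AngII, against 8.64, 8.94 and 8.53 in WT Sham. The groups overlapped in both genotypes, with differences of -0.04 ± 0.14 (95% interval -0.35 to 0.27) in KO and -0.25 ± 0.14 (-0.56 to 0.06) in WT. Abcc9 ILMN_3104271 read 10.24, 10.26 and 10.50 in WT AngII, against 10.72, 10.53 and 10.63 in WT Sham, every AngII array below every sham array. Its difference of -0.29 ± 0.12 was not called (adjusted p = 0.181, limma), and neither was that in KO (-0.21 ± 0.12, adjusted p = 0.349). Rgs5 was on the other side of 0 from Balb/C, at 0.07 ± 0.10 in KO and 0.20 ± 0.10 in WT, and neither was called. In WT its AngII arrays, at 11.50 to 11.54, all lay above the sham arrays, at 11.25 to 11.44. Pdgfrb, Cspg4 and Notch3 lay between -0.31 and -0.02 in both genotypes, with adjusted p-values of 0.318 or more.

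Among the 8 probes Abcc9 ILMN_2623859 had the largest AngII minus Sham difference in C57Bl/6J. It read 7.64, 8.06 and 8.20 in KO AngII, against 7.26, 7.53 and 6.86 in KO Sham, without overlap, a difference of 0.75 ± 0.21 that missed the threshold (adjusted p = 0.069, limma) but was called under 5 of the other settings tried. In WT it read 6.99, 7.36 and 7.64 under AngII, against 7.47, 7.42 and 7.80 in WT Sham, with overlap and a difference of -0.24 ± 0.21. The difference of the responses, KO minus WT, was 0.98 ± 0.30 (adjusted p = 0.436). The dim probe ILMN_1253491 read 5.25, 5.77 and 5.35 in KO AngII, against 4.79, 4.82 and 5.54 in KO Sham, where only 1 of 3 arrays detected it.

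None of the 8 probes was called in any of the 5 comparisons within C57Bl/6J. Of all 20319 probes 3.40% were called for AngII against Sham in KO and 6.40% in WT, 0.108% for KO against WT under AngII, 0.00492% for KO against WT in sham mice and 0.0394% for the difference of the responses. At an unadjusted p below 0.05, 1 of the 8 probes passed in KO, 1 in WT, 1 between KO and WT under AngII, 0 in sham mice and 2 for the difference of the responses. At that threshold 4247, 4484, 1845, 1358 and 1685 of all 20319 probes passed, in the same order. The median difference of the 8 probes was -0.03 in KO and -0.23 in WT, against -0.01 over all probes in both.

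**Figure D3:**
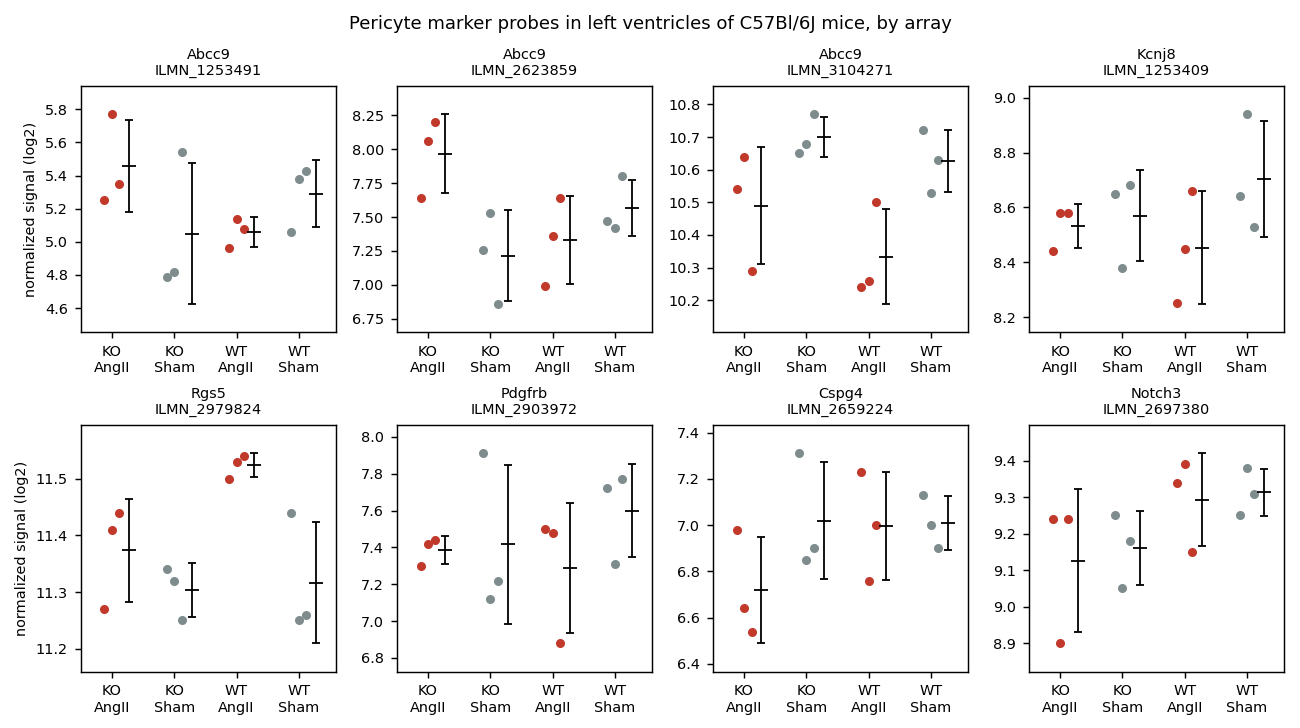
Normalized log2 signal (vertical axes, 1 panel per probe, axes not starting at 0) of the 8 tested pericyte marker probes on each C57Bl/6J array; red points are AngII and grey points Sham arrays, and the bars give the mean and SD of 3 arrays. Kcnj8 overlaps across all 4 groups, and Abcc9 ILMN_2623859 is highest in KO AngII, at 7.64 to 8.20.

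**Figure D4:**
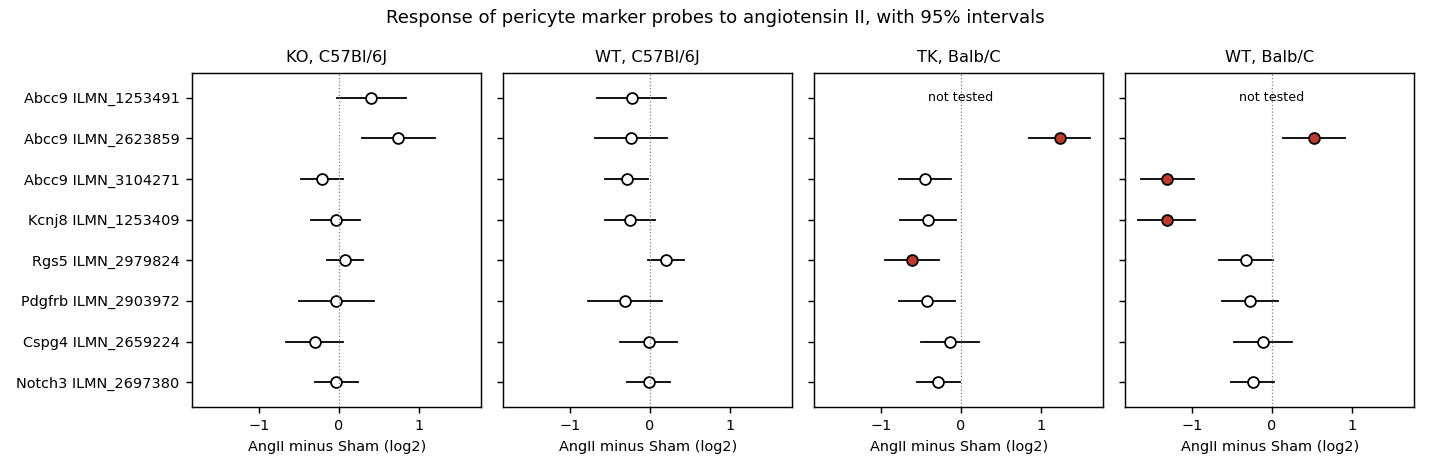
AngII minus Sham difference (log2, horizontal axis) of each pericyte marker probe in KO and WT C57Bl/6J and in TK and WT Balb/C ventricles, with 95% intervals; filled circles are called at an adjusted p below 0.05 (limma). Filled circles stand in the Balb/C panels alone, with Kcnj8 and Abcc9 ILMN_3104271 at -1.32 and -1.31 in WT.

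One model over all 24 arrays and the 17967 probes kept for both strains tested how far the strains' responses differ. For WT mice the difference, C57Bl/6J minus Balb/C, was 1.07 ± 0.22 for Kcnj8 (adjusted p = 0.00356) and 1.02 ± 0.19 for Abcc9 ILMN_3104271 (adjusted p = 0.00163), so the fall was smaller in C57Bl/6J. These 2 of 7 probes stand beside 12.9% of all probes. Rgs5 came to 0.53 ± 0.19 (adjusted p = 0.0623) and ILMN_2623859 to -0.76 ± 0.29 (adjusted p = 0.0811); ILMN_2623859 was called without C57Bl/6J WT AngII array 3 (-0.92, adjusted p = 0.0484) or Balb/C WT AngII array 3 (-0.95, 0.0384). With arrays scaled to a common median, Kcnj8 and Abcc9 ILMN_3104271 were not called (0.52, adjusted p = 0.215, and 0.45, adjusted p = 0.216), while the median of all probes was at -0.36 and all calls split 68 to 3623, against 1063 to 1257. Rgs5 came to -0.04 under that scaling (adjusted p = 0.945, limma). Relative to that median Kcnj8 was at 0.88, Abcc9 ILMN_3104271 at 0.81 and Rgs5 at 0.32, values that were not tested.

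For Bmx-deficient mice, KO in C57Bl/6J against TK in Balb/C, none of the 7 probes was called, where 1.24% of all probes were. Rgs5 had the smallest adjusted p (0.0638), with a difference of 0.69 ± 0.19. It was called without TK Sham array 1 (0.76, adjusted p = 0.0454) or TK Sham array 2 (0.80, adjusted p = 0.0432). Kcnj8 differed by 0.37 ± 0.22 and Abcc9 ILMN_3104271 by 0.24 ± 0.19, with intervals of -0.09 to 0.84 and -0.16 to 0.64. The kinds of allele in KO and TK mice are not given, so strain, table and allele cannot be told apart in this comparison. Levels of the separately normalized tables are not comparable as such; side by side, Notch3 read 8.90 to 9.39 in C57Bl/6J and 7.11 to 7.59 in Balb/C.

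Partners of these genes are set here against the 34.3% of all probes called in WT Balb/C ventricles under AngII. All 4 genes of the angiopoietin pathway, by which mural and endothelial cells signal to each other, were called lower, the receptor Tie1 by -1.04 ± 0.18, the ligand Angpt2 by -0.69 ± 0.14, the receptor Tek by -0.68 ± 0.14 and the ligand Angpt1 by -0.51 ± 0.19. Tie1 and Tek are counted again among the endothelial probes below, and Pdgfra of the PDGF list among the fibroblast probes. Angpt1 was not above background on any WT AngII array, which makes its fall at least 1.22-fold. Of 12 Notch pathway probes 2 were higher, the receptor Notch1 (0.89 ± 0.17) and the target gene Heyl (0.93 ± 0.20), and 2 lower, the ligands Dll4 (-0.64 ± 0.16) and Jag2 (-0.55 ± 0.19). These 4 of 12 are close to the share of all probes. Of 5 PDGF probes only the ligand Pdgfc was called, higher by 0.61 ± 0.14; it was not above background in WT Sham, which makes this at least 1.36-fold. A bound sets the bright group's mean against the dimmest signal that counts as detected. Of the other channel subunits Abcc8 was lower (-0.46 ± 0.15) and Kcnj11 was not called, and 0 of 7 probes of Rgs5's relatives in the R4 family were called. In TK ventricles Tek (-0.58 ± 0.14) and Tie1 (-0.61 ± 0.18) fell and Notch1 rose (0.96 ± 0.17), while 0 PDGF, 0 channel and 0 R4 family probes were called. The share of all probes called in TK was 13.4%. Under AngII, Angpt2 was higher in TK than in WT by 0.92 ± 0.14, while Pdgfc (-0.73 ± 0.14, at least 1.37-fold, not above background in TK AngII) and the receptor Pdgfra (-0.56 ± 0.14) were lower. In C57Bl/6J 1 of 9 R4 family probes was called in KO, where 3.40% of all probes were. This was the dim Rgs3 probe ILMN_1228100 (mean log2 level 5.30), lower by -0.64 ± 0.13. No other probe of these 5 lists was called for AngII in either genotype.

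Further genes enriched in mural cells did not move as 1 group. Of 37 probes for 22 such genes, 5 were higher and 7 lower in WT Balb/C under AngII, with a median of -0.10. These 12 of 37 and this median are close to the 34.3% called and the median of -0.06 over all probes. The endothelin receptor Ednrb rose by 1.78 ± 0.16, while vitronectin (Vtn, -1.06 ± 0.13), the angiotensin receptor Agtr1a (-1.24 ± 0.22) and the nucleotide-sugar receptor P2ry14 (-0.93 ± 0.17) fell. In TK 2 were higher, Ednrb (1.57 ± 0.16) and Art3 (1.27 ± 0.22), and 2 lower, Vtn (-0.53 ± 0.13) and the guanylate cyclase subunit Gucy1a1 (-0.55 ± 0.15). The share of all probes called in TK was 13.4%. Between TK and WT under AngII 7 were higher and 1 lower, with Agtr1a at 1.12 ± 0.22, P2ry14 at 0.88 ± 0.17, Vtn at 0.59 ± 0.13 and the transcription factor Foxs1 at -1.04 ± 0.22. In that comparison 8.29% of all probes were called, and 3.38% of all probes were called higher. In C57Bl/6J 0 of 36 probes were called in KO, and 2 were higher and 2 lower in WT, beside 3.40% and 6.40% of all probes.

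Markers of other cell types are set here against the 34.3% of all probes called in WT Balb/C under AngII, 16.5% higher and 17.7% lower. In WT Balb/C under AngII 15 of 21 smooth muscle probes were lower and 1 higher (median -0.73), 12 of 20 endothelial probes lower and 1 higher (median -0.45), and 14 of 16 fibroblast and 9 of 10 macrophage probes were higher (medians 1.39 and 1.02). Summed over 9 smooth muscle genes, the normalized signal was 10944 to 11606 in WT AngII, against 21999 to 23990 in WT Sham, and 17097 to 20820 in TK AngII, against 16456 to 27136 in TK Sham. The endothelial sum over 13 genes was 15226 to 16814 in WT AngII, against 19367 to 21268 in WT Sham, and 14785 to 16324 in TK AngII, against 19001 to 19651 in TK Sham. For the 6 pericyte genes the sum was 2175 to 2584 in WT AngII, against 3833 to 4193 in WT Sham, and 2922 to 2981 in TK AngII, against 3816 to 4927 in TK Sham. This sum holds Kcnj8 and Abcc9 ILMN_3104271, the 2 probes called lower in WT, and leaves out ILMN_2623859, which was called higher. The Rgs5, Pdgfrb, Cspg4 and Notch3 probes in it were not called in WT. Fibroblast sums were 25972 to 33342 in WT AngII, against 13753 to 15839 in WT Sham, and 17241 to 21244 in TK AngII, against 14858 to 15950 in TK Sham. Between TK and WT under AngII, the comparison in which Kcnj8 and Abcc9 ILMN_3104271 were called, 6 of 21 smooth muscle probes were higher in TK, Acta2 ILMN_2710354 by 1.59 ± 0.27, and 11 of 16 fibroblast probes lower. There 8.29% of all 19783 probes were called, 668 higher and 972 lower. Ventricular myocyte markers had 2 probes higher and 1 lower of 14 in WT, with sums of 101874 to 113230 in WT AngII, against 105588 to 122819 in WT Sham. The part of these cell types in the changes of the pericyte genes was not tested.

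In TK Balb/C under AngII 2 of 21 smooth muscle probes were lower and 1 higher, 9 of 20 endothelial probes lower and 1 higher, and 6 fibroblast and 4 macrophage probes higher. Of all probes 13.4% were called in TK, 5.59% lower and 7.79% higher, and the smooth muscle calls are close to that share. In WT 34.3% of all probes were called. Of the smaller lists, 2 of 8 Schwann cell probes were higher in WT, both of Ncam1, and 2 lower, of Sox10 and Cnp. In TK 1 Ncam1 probe was higher and 1 Cnp probe lower. The 2 atrial myocyte probes, of Nppa and Myl4, were higher in WT, and that of Nppa in TK. For erythroid genes 0 probes were called in WT and 2 were higher in TK. A platelet probe was higher in each genotype, and 0 adipocyte probes were called. In C57Bl/6J 8 of 14 fibroblast probes were higher in KO and in WT, 5 of 10 macrophage probes in KO and 3 in WT, 1 of 20 smooth muscle probes was higher in KO and 2 lower in WT, and 0 of 20 endothelial probes were called in either. Over all probes of that strain 3.40% were called in KO and 6.40% in WT. Among the markers of these cell types, Cnn1 (smooth muscle), S100b (Schwann cells), Adipoq and Plin1 (adipocytes) passed the filter in neither strain, and Itga8 (smooth muscle), Postn (fibroblasts) and Kcna1 (Schwann cells) did not pass in C57Bl/6J. Of the partner and mural lists Tbx18, Steap4, Pdgfd, Jag1, Notch2, Rbpj, Lfng, Rgs1, Rgs2, Rgs13 and Rgs18 passed in neither strain and Rgs8 did not pass in Balb/C.

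**Figure D5:**
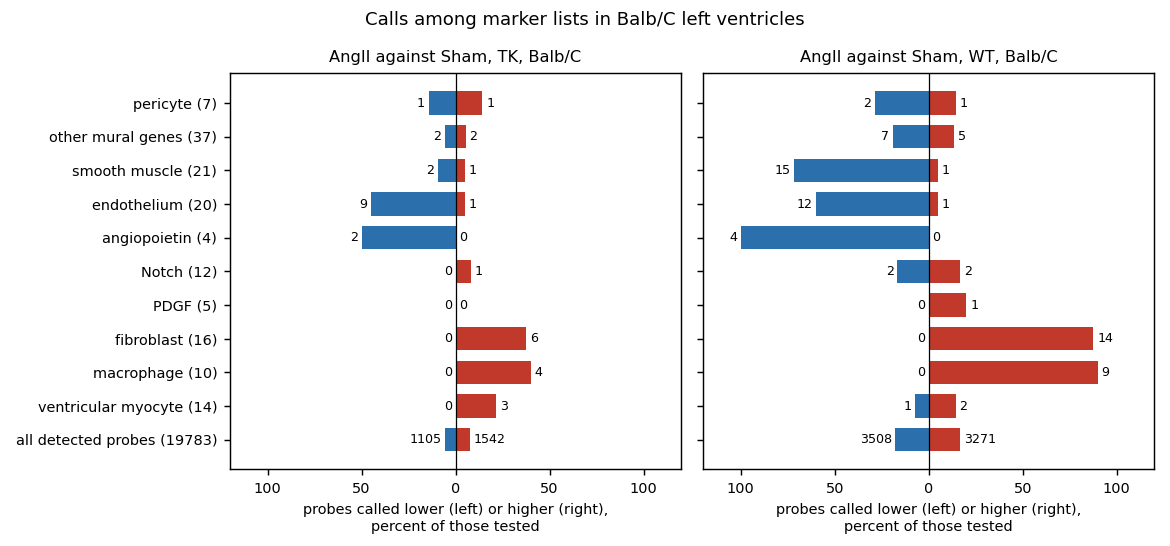
Share of probes called lower (blue, left) and higher (red, right) under AngII in TK and WT Balb/C ventricles, per list, with the number tested in brackets and the number called beside each bar. In WT the smooth muscle and endothelial lists lie mostly on the lower side (15 of 21 and 12 of 20 probes) and fibroblast and macrophage lists on the higher side, with the 7 pericyte probes split 2 to 1.

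The genes whose levels ran most like each member were searched among 9704 other genes, by the lower of the Pearson correlations over the 12 arrays of each strain. For Abcc9 ILMN_3104271 these were Slc9a2 and Focad, each at 0.91 in C57Bl/6J and 0.92 in Balb/C. For Kcnj8 they were Pygm (0.89 and 0.92) and Acsf3 (0.85 and 0.92). Rgs5 ran with Wwp1 (0.85 and 0.79) and Ugp2 (0.88 and 0.77), Pdgfrb with Ccm2l (0.74 and 0.75) and Gpr137b (0.72 and 0.73), Cspg4 with Zmiz1 (0.72 and 0.80) and Pip5k1a (0.76 and 0.69), and Notch3 with Eloa (0.71 and 0.70) and the endothelial marker Pecam1 (0.65 and 0.72). Within the set, Kcnj8 correlated at 0.06 with Abcc9 ILMN_2623859 in C57Bl/6J and at -0.40 in Balb/C, and with Rgs5 at -0.34 in C57Bl/6J and 0.63 in Balb/C. These are descriptions over arrays that share treatment groups.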

How the data were processed

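For each of 24 arrays the authors deposited linear probe intensity values before normalization, as named per the file headers, and a deposited detection p-value beside each. The authors' series values, deposited as log2 values, served as an alternative. Per the labels RNA came through TRIsure extraction and NucleoSpin columns, then an Ambion MessageAmp kit for biotin labelling; scanner software, slides and normalization settings are not given in the sources used here. In the Balb/C file 313 detection cells without a decimal point, all of the dimmest 0.258% of signals, were taken as 1.

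In R 4.3.3 with limma 3.58.1 signals were corrected by the normal-exponential model of neqc with an offset of 16, quantile-normalized within strain and put on the log2 scale. Per strain 4 group means were fitted over all kept probes (20319 in C57Bl/6J, 19783 in Balb/C), with 8 residual degrees of freedom and Benjamini-Hochberg adjustment over all of them. Calls are adjusted p below 0.05. Signal over background and 3 arrays per group limit the precision. Probes of a gene were never merged. Platform annotation gave 1 symbol to 34885 probes. Summed levels add the brightest kept probe per gene on a linear scale without the offset. The fit was tested on simulated data. Alternatives were no background correction, an offset of 50, median scaling, no filter or a stricter one (detection p under 0.01), the brightest probe per gene, the deposited series values, a trended prior, a fit to the compared groups alone, joint normalization of both strains, the replicate number as a block and each array left out. The members and lists were chosen with earlier results of these data known. Named were every member probe, up to 4 called probes of smallest p per list and the 2 most alike genes per member. The labels do not say whether replicate numbers pair the arrays, and no clear pairing by number was seen. Of 18 same-numbered pairs per strain, 1 in C57Bl/6J and 2 in Balb/C correlated above 0.1, at most at 0.18 and 0.29. Such correlations cannot exclude a pairing.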

Additional observations from a re-analysis of the deposited data

Results flagged for a closer look

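The response to AngII of 2 probes differed between strains in WT mice by the test of the difference itself. For Kcnj8 the AngII minus Sham difference was 1.07 higher (log2) in C57Bl/6J than in Balb/C, and for Abcc9 ILMN_3104271 it was 1.02 higher. Groups of 3 arrays are too small for a test of single arrays standing apart.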

How the results depend on the processing

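The falls of Kcnj8 and Abcc9 ILMN_3104271 in WT Balb/C kept their call under all 10 other settings and without each of 6 arrays, at -1.48 to -0.79 (adjusted p 8.82e-06 to 0.00457) and -1.45 to -0.78 (2.32e-06 to 0.00393). The rise of ILMN_2623859 in TK kept it under 9 settings and 6 arrays (0.60 to 1.32, adjusted p 3.20e-04 to 0.00421); in WT 5 of 9 settings and 2 of 6 arrays kept it (0.24 to 0.98, adjusted p 0.00208 to 0.176). Rgs5 in TK kept its call under 9 of 10 settings and 4 of 6 arrays (-0.73 to -0.43, adjusted p 0.00867 to 0.116). TK against WT under AngII, Kcnj8 kept its call under 9 of 10 settings and 4 of 6 arrays (0.40 to 0.91, adjusted p 0.00191 to 0.191) and ILMN_3104271 under 9 of 10 and 3 of 6 (0.41 to 0.85, 0.00173 to 0.16). The strain differences in WT kept theirs under 5 of 6 settings and all 12 arrays (Kcnj8 0.52 to 1.23, adjusted p 0.00118 to 0.215; ILMN_3104271 0.45 to 1.16, 4.47e-04 to 0.216). No called member changed sign.

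Counts of member probes moved as follows, and where no value is given above the cause was not tested. For AngII in KO C57Bl/6J the count was 1 in place of 0 (ILMN_2623859, adjusted p 0.0276 to 0.0369) without background correction, with an offset of 50, with median scaling, on the deposited series values and with a trended prior. For AngII in WT Balb/C it was 2 to 3, and Notch3 was called without background correction (adjusted p 0.0451) and with no filter (0.047). For AngII in TK Balb/C it was 4 in place of 2 without background correction and on the deposited series values, where Notch3 and ILMN_3104271 were called too, 3 with an offset of 50 and with a trended prior (ILMN_3104271, adjusted p 0.0373 and 0.0435) and with no filter (Notch3, 0.0481), 1 with median scaling and 1 with the brightest probe per gene, which leaves ILMN_2623859 out; leaving out single arrays gave 1 to 2. For TK against WT under AngII it was 0 with median scaling, and 0 to 3 without single arrays. For the difference of responses, TK minus WT, it was 1 in place of 0 (ILMN_3104271, adjusted p 0.0361 to 0.049) with an offset of 50, the brightest probe per gene, the deposited series values and a trended prior, and 0 to 2 without single arrays. For the strain difference in WT it was 1 in place of 2 (ILMN_2623859, -1.22) with median scaling and 3 with an offset of 50 and on the deposited series values (Rgs5, adjusted p 0.0356 and 0.0262), and in deficient mice 1 in place of 0 (Rgs5) with an offset of 50 and on the deposited series values, and 0 to 1 without single arrays. With the replicate block every count of member calls was as without it (3, 2 and 2 in the Balb/C comparisons with calls, and 2 for the strain difference in WT), and it moved no count of all calls by over 1.5 times; 2 of 12 arrays in C57Bl/6J and 3 of 12 in Balb/C correlated best with their own number.

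Counts over all probes ranged more widely over settings and left-out arrays. For AngII against Sham they were 98 (without KO Sham array 3) to 1397 in KO, where 690 were called, 564 (without WT AngII array 2) to 1950 in WT C57Bl/6J (1301), 1372 to 2737 in TK (2647) and 3965 to 6824 in WT Balb/C (6779). For KO against WT they were 6 to 61 under AngII (22), 0 to 2 in sham mice (1) and 3 to 21 for the responses (8); for TK against WT they were 575 (without WT AngII array 2) to 2978 under AngII (1640) and 86 to 951 for the responses (246). The strain difference gave 1615 to 3691 in WT (2320) and 49 (without TK Sham array 3) to 369 in deficient mice (223). The fit to only the groups compared gives no value for differences of responses. Low signal over background limits what ILMN_1253491 and ILMN_1233056 can show.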
